A study of Mus musculus with 6 samples.

Results

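Nuclear-encoded oxidative phosphorylation (OXPHOS) genes are described here in the adult mouse optic nerve after Nf1, which encodes the Ras regulator neurofibromin, was targeted in cells that use the Plp promoter, an oligodendrocyte promoter in the adult nerve. The members were the genes of the deposited count tables named as subunits of NADH dehydrogenase (Ndufa, Ndufb, Ndufc, Ndufs or Ndufv with a number), succinate dehydrogenase (Sdha to Sdhd), the cytochrome bc1 complex (Uqcr), cytochrome c oxidase (Cox4 to Cox8) or ATP synthase (Atp5). This rule found 83 of 24062 genes, with 36 in complex I, 4 in complex II, 8 in complex III, 18 in complex IV and 17 in complex V. The rule used gene names and no measured value, but it was set with earlier results of these data known. Total RNA of optic nerves was amplified and sequenced from 3 control and 3 mutant libraries. Control library 1 came from Nf1flox/flox tissue and the other controls from Nf1flox/+ tissue, all without a Cre transgene. All 3 mutant libraries have the genotype PlpCreERT2;Nf1flox/flox, in which the Plp promoter drives a Cre recombinase that tamoxifen activates, so that recombination is limited to cells using that promoter while the libraries hold RNA of the whole nerve. Tamoxifen was given to animals older than 2 months, whose nerves were collected 1 month afterwards. The labels name no separate animal for each library, so p-values reflect the spread among the 6 libraries, part of which may be technical.

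Oxidative phosphorylation takes place in the inner mitochondrial membrane. Complexes I and II pass electrons from NADH and succinate to ubiquinone, complex III passes them to cytochrome c, and complex IV passes them to oxygen. Proton pumping by complexes I, III and IV drives complex V, the ATP synthase. Most subunits are encoded in the nucleus, and the remainder, encoded by mitochondrial DNA, were not analysed here. Axons of the optic nerve depend on this pathway along their length, and oligodendrocytes supply them with fuel for it.

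The libraries held 13555756 to 23662698 counts, of which OXPHOS genes took 0.604%, 0.596% and 0.768% in control libraries 1, 2 and 3 and 0.924%, 0.743% and 0.560% in mutant libraries 1, 2 and 3. Nf1 itself had 394, 400.0 and 337 CPM (counts scaled to a common library size) in control libraries 1, 2 and 3 and 304, 226 and 433 CPM in mutant libraries 1, 2 and 3. Mutant library 3 was thus above all controls, and the difference did not pass (edgeR log2 fold change -0.23, SE 0.28, adjusted p 0.703). These counts sum all exons and all cells of the nerve and do not show whether the floxed part was removed, so control and mutant name the groups as labelled. The precursor of ribosomal RNA, Rn45s, took 1.73% to 10.9% of counts. Markers of oligodendrocytes (10 genes) were present in every library, at a summed 25877 to 26698 CPM in controls, and at 5425, 33816 and 4662 CPM in mutant libraries 1, 2 and 3. Neuron markers (12 genes) summed to 751 to 1392 CPM in controls and to 7462, 2248 and 5648 CPM in the mutants. Mutant library 2 thus stood apart from mutant libraries 1 and 3 in both lists. The Y-linked gene Ddx3y reached 2177 and 2119 counts in the control libraries numbered 1 and 3. It had 0 counts, a reading that allows up to 3, in the remaining control and every mutant library. Xist, the transcript of the inactive X chromosome, had 34 to 58 counts where Ddx3y was present and 30602 to 72727 elsewhere. No mutant library held Y-linked transcripts, so the group difference can be read at like sex only against control library 2.

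No OXPHOS gene passed the test of a difference between mutant and control nerves. Of 79 members with enough counts to be tested, 0 rose and 0 fell by edgeR's quasi-likelihood test with Benjamini-Hochberg adjustment over all 16315 tested genes, against 3.29% of all tested genes. DESeq2 and limma-voom also called 0, where they called 10.1% and 3.1% of all tested genes. An unadjusted p under 0.05 was reached by 2 members (2.53%) in edgeR, by 3 in DESeq2 and by 2 in limma-voom. Over all 16315 tested genes it was reached by 19.2% in edgeR, by 3593 genes in DESeq2 and by 3666 in limma-voom. The fold changes were small and mostly positive. The median log2 fold change, mutant minus control, was 0.17 for OXPHOS genes and -0.0017 for all tested genes, 64 members were above 0 and 15 below, and 74 of the 79 lay within 0.5 of 0. The smallest adjusted p was 0.244, for Atp5s.

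A missed threshold does not show equal levels, so the intervals are given as well. The standard error (SE) of the log2 fold change had a median of 0.31 over members (0.21 to 0.84). The 95% interval lay between -1 and 1, that is within 2-fold in either direction, for 57 of the 79 members. It reached past 1 for 18 members, past -1 for 3 and past both for 1. A 2-fold difference thus lay outside the interval for most members but not for the 22 others.

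Mutant libraries did not sit together. Relative to the control mean on the log2 CPM scale, the median over members was 0.05, -0.18 and 0.20 in control libraries 1, 2 and 3, and 0.47, 0.30 and -0.41 in mutant libraries 1, 2 and 3. Mutant library 1 was above the control mean in 73 of 79 members, mutant library 2 in 64 and mutant library 3 in 14. Mutant library 1 was the highest of the 6 libraries in 45 members and mutant library 3 the lowest in 51, whereas over all tested genes these libraries were highest in 21.7% and lowest in 24.1%. The OXPHOS genes of a library thus lay high or low together, and the libraries of the mutant group lay on both sides of the controls. The median fold change followed the libraries included. It was -0.01 without mutant library 1, 0.13 without mutant library 2 and 0.40 without mutant library 3. Without control library 2 it was 0.08. With the Xist level (log2 CPM) as a covariate the median was 0.39, with 71 of 79 members above 0, and it was 0.36 among the libraries with high Xist, which include a single control.

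**Figure D1:**
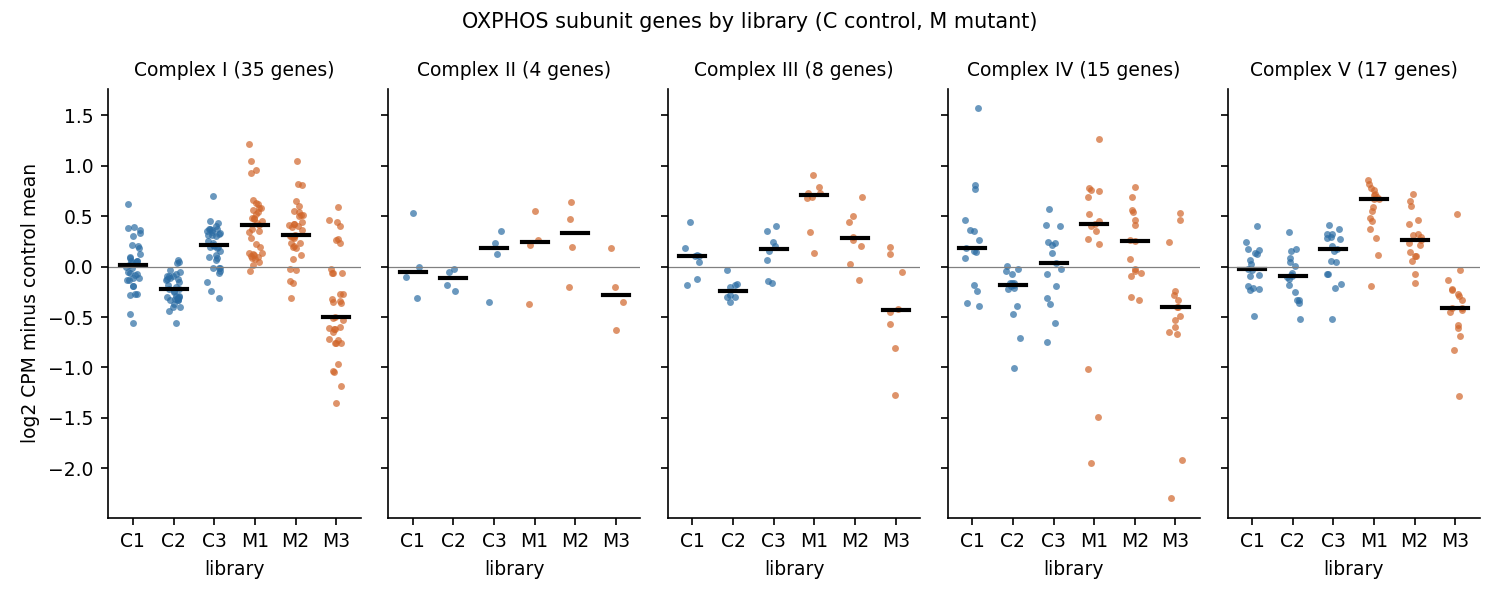
Deviation of each tested OXPHOS gene (points) from its control mean, in log2 CPM, by library (C1 to C3 control, M1 to M3 mutant) and respiratory complex; black bars are medians over genes. In every complex the median of mutant library 1 lies above 0 and that of mutant library 3 below 0.

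Groups did not overlap in 5 members, Ndufa10, Ndufs3, Ndufv2, Sdha and Atp5s, all with the mutant libraries above the controls. That is 6.33% of tested members, where 12.5% of all tested genes had every mutant library above every control. In 0 members were all mutant libraries below all controls, where the share was 11.5% over all tested genes. The members' shares were thus below the background in both directions.

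**Figure D2:**
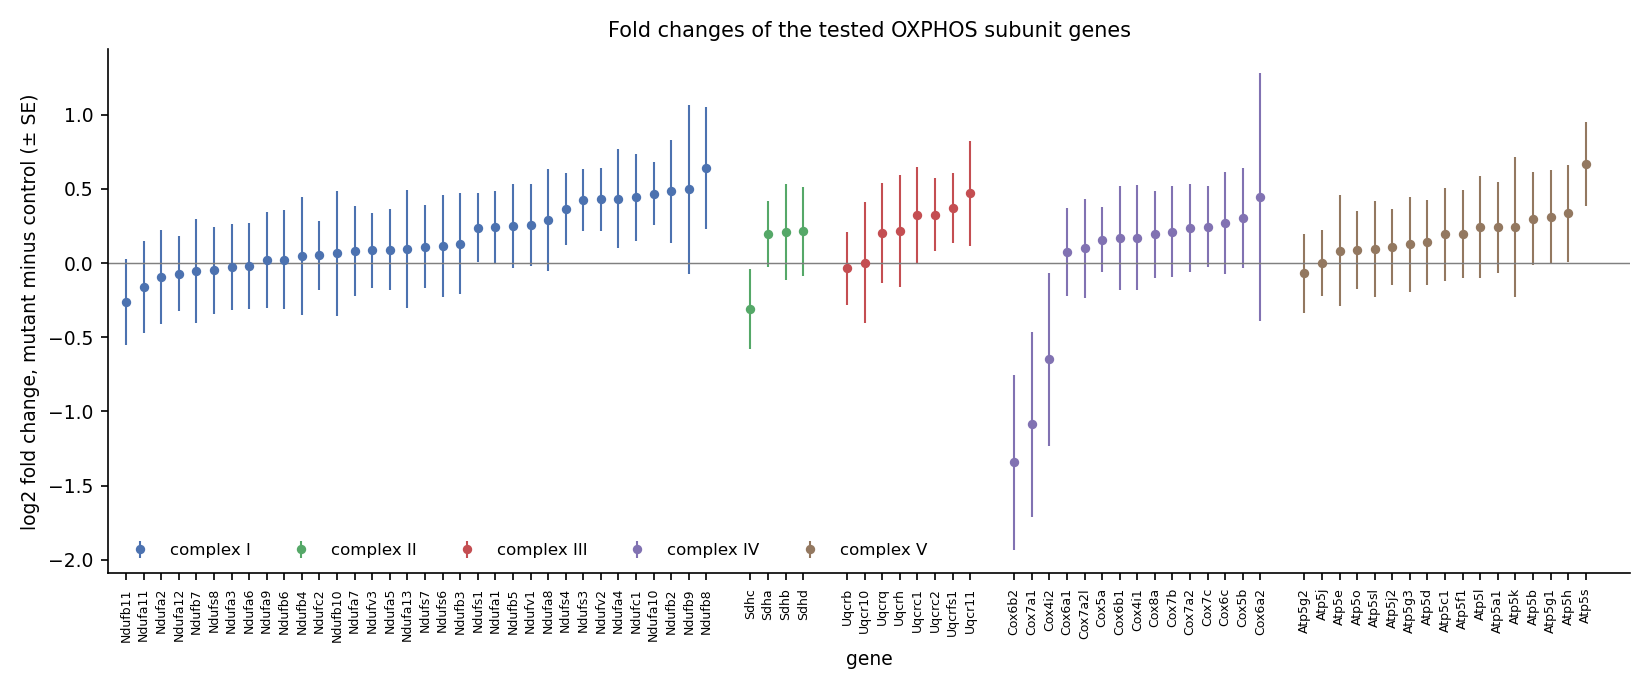
Log2 fold change, mutant minus control, of tested OXPHOS genes, all but 1 of them, with its SE (bars), ordered within complexes I to V. Nearly all points lie between -0.5 and 0.7, and Cox6b2, Cox7a1 and Cox4i2 lie lowest.

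Complex I, the NADH dehydrogenase, had a median log2 fold change of 0.11 over 35 tested subunit genes, with 27 above 0 and 8 below. Ndufa10, an accessory subunit gene (chromosome 1, 92439719 to 92473758 of build mm10, which all gene positions use), had 57.4, 58.2 and 71.5 CPM in control libraries 1, 2 and 3 and 96.2, 77.3 and 85.3 CPM in mutant libraries 1, 2 and 3. Every mutant library was above every control, yet the difference did not pass (edgeR log2 fold change 0.47, SE 0.21, adjusted p 0.275). Ndufs3, a core subunit gene of the hydrophilic arm (chromosome 2, 90894636 to 90904721), had 44.3, 36.3 and 45.1 CPM in the controls and 57.0, 56.8 and 55.1 CPM in the mutants. Its mutant libraries were nearly equal (56.3 ± 1.01 CPM, SD, n = 3) and the edgeR log2 fold change was 0.43 with an SE of 0.21 (adjusted p 0.306). Ndufv2, which carries an iron-sulfur cluster next to the NADH site, had 47.2 to 53.4 CPM in the controls and 60.1 to 78.6 CPM in the mutants, again without overlap (edgeR log2 fold change 0.43, SE 0.21, adjusted p 0.310).

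The named subunits that carry the electron path of complex I had log2 fold changes above 0 except Ndufs8, which was near 0, and none passed. Ndufv1, which binds NADH and the flavin, had 44.8 ± 4.30 CPM in the controls and 53.6 ± 16.5 CPM in the mutants (SD over 3 libraries a group). Its log2 fold change was 0.26 with an SE of 0.27. The iron-sulfur subunit genes Ndufs1, Ndufs7 and Ndufs8 had log2 fold changes of 0.24, 0.11 and -0.05. Ndufs1 had 96.7, 91.0 and 92.7 CPM in controls and 121, 83.3 and 127 CPM in mutant libraries 1, 2 and 3, so that its highest value was in mutant library 3. Ndufs8 was lowest in that same library, at 24.9 CPM against 37.4 to 48.4 CPM in controls. Exons of Ndufs1 overlap the antisense gene Ino80dos, and counting without strand cannot separate them.

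Among accessory subunits of complex I, Ndufb8 had the highest log2 fold change, at 0.64 with an SE of 0.41 (edgeR, adjusted p 0.434). It had 68.6, 52.0 and 73.4 CPM in controls and 149, 112 and 41.7 CPM in mutant libraries 1, 2 and 3. Mutant libraries 1 and 2 were thus above all controls and mutant library 3 was below all of them. Ndufb11 had the lowest, -0.26 (SE 0.29), with 45.0 to 49.2 CPM in controls, 50.7 and 42.4 CPM in mutant libraries 1 and 2 and the lowest value of all in mutant library 3. Per length, in CPM per kilobase of exon (RPKM), Ndufa4 had the highest control level of the genes grouped here under complex I, 175 RPKM, and Ndufa11 the lowest tested, 15.3 RPKM. The product of Ndufa4 has since been assigned to complex IV. Ndufs5 had 0 counts in all libraries. Its exons overlap those of a second gene entry, BC002163, which had 31 to 119 counts, so the level of Ndufs5 cannot be read from these counts.

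Complex II, succinate dehydrogenase, which is also an enzyme of the TCA cycle, gave a median log2 fold change of 0.20 over its 4 genes. Sdha, the flavoprotein gene (chromosome 13, 74322255 to 74350240), had 375, 395 and 440 CPM in the controls and 467, 462 and 457 CPM in the mutants. The groups did not overlap, but the difference was small (edgeR log2 fold change 0.20, SE 0.22, adjusted p 0.678). Sdhb, the iron-sulfur subunit gene, had 50.0 ± 8.21 CPM in the controls and 57.7 ± 22.3 CPM in the mutants. The membrane anchor genes differed in sign, with Sdhd at 0.21 and Sdhc at -0.31 (edgeR adjusted p 0.743 and 0.575). Control library 1 set the value of Sdhc, which had 123 CPM there, 66.9 to 75.0 CPM in the other controls and 65.8 to 74.0 CPM in mutants. Without that library its log2 fold change was 0.01.

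Complex III, which hands electrons from ubiquinol to cytochrome c, had the highest median of the complexes, 0.27 over 8 genes, with 7 above 0. Uqcr11, a small accessory subunit gene, had 57.7, 46.9 and 55.8 CPM in the controls and 100.3, 85.9 and 36.0 CPM in the mutants (edgeR log2 fold change 0.47, SE 0.35, adjusted p 0.509). Uqcrfs1, which encodes the Rieske iron-sulfur protein, had 46.0, 39.6 and 36.1 CPM in the controls and 64.7, 48.6 and 44.1 CPM in the mutants. Mutant library 3 lay within the control range of Uqcrfs1 and the others above it (edgeR log2 fold change 0.37, SE 0.24, adjusted p 0.432). Uqcrb, a subunit gene near the quinone site, was at -0.04. Uqcrh, the hinge protein gene, had the highest control level per length of complex III, 192 RPKM, and Uqcrfs1 the lowest, 30.9 RPKM.

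Complex IV, cytochrome c oxidase, held the genes that departed most from the others. Its median over 15 tested genes was 0.17, with 12 above 0 and 3 below, and those 3 were tissue-restricted isoforms, Cox6b2, Cox7a1 and Cox4i2. Another restricted isoform, Cox6a2, had the highest log2 fold change of complex IV, 0.45, with a wide SE of 0.84. The widely expressed subunits had group differences near 0, with mutant libraries on both sides. Cox4i1, a regulatory subunit with the highest control level per length in complex IV, 291 RPKM, had 216, 148 and 229 CPM in the controls and 313, 232 and 122 CPM in the mutants. Mutant libraries 1 and 2 were above all controls and mutant library 3 below them (edgeR log2 fold change 0.17, SE 0.35, adjusted p 0.834). Log2 fold changes of Cox6a1, Cox6b1, Cox7a2 and Cox8a were 0.07, 0.17, 0.24 and 0.19, and that of Cox7a2l, which promotes the joining of complexes III and IV, was 0.10.

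Several subunits of complex IV exist as a widely expressed isoform and an isoform known mainly from heart and skeletal muscle (Cox6a2, Cox7a1, Cox8b), testis (Cox6b2, Cox7b2, Cox8c) or lung (Cox4i2). In control nerves Cox7a1 and Cox6b2 were the most abundant of the restricted isoforms per length, at 13.3 and 12.4 RPKM, beside 80.0 RPKM for Cox7a2 and 118 RPKM for Cox6b1. Cox4i2, Cox8b and Cox6a2 were at 1.73, 1.08 and 0.928 RPKM. Cox7b2 had 5 counts in mutant library 1 and 0 elsewhere, and Cox8c had 6 counts in control library 1 and 0 elsewhere. Cox7b2, Cox8b and Cox8c had too few counts to be tested.

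Promoters of the Cox7a and Cox6b pairs are shown because these restricted isoforms had the lowest fold changes while their partners did not share them. The sequences are those of RefSeq on build GRCm38.p6, matched by symbol (66 of the 83 members had an entry), up to 250 bases before the start of the gene on its own strand. Capitals mark CG dinucleotides.
Cox7a2, chr9:79759854-79760103, minus strand: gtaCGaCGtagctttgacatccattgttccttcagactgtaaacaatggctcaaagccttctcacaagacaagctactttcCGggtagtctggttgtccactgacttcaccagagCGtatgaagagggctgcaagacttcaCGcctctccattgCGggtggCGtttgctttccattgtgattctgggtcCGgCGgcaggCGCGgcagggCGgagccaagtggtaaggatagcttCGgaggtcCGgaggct
Cox7a1, chr7:30183921-30184170, plus strand: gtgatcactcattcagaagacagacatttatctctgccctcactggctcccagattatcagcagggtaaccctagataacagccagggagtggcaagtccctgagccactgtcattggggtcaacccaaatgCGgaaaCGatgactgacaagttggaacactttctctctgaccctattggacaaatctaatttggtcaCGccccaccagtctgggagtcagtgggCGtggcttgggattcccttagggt
Cox6b1, chr7:30626152-30626364, minus strand: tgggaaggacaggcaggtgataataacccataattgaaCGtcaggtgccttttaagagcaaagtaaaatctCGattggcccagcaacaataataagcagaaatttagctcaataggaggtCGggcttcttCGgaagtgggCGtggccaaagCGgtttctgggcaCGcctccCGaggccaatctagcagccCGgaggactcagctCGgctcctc
Cox6b2, chr7:4753095-4753344, minus strand: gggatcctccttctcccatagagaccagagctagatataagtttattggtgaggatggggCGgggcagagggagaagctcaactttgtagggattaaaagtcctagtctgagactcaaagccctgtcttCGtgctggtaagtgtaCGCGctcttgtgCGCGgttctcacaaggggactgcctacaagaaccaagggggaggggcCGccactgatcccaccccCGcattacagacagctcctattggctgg
The windows printed held 14 CG dinucleotides for Cox7a2 and 4 for Cox7a1 over 250 bases, and 10 for Cox6b1 over 213 bases against 8 for Cox6b2 over 250. Over the full RefSeq windows of 300 bases, the median was 19 for members and 7 for all promoters in the table, with 20 for Cox7a2, 7 for Cox7a1, 17 for Cox6b1, 10 for Cox6b2 and 2 for Cox8b. A member gene was given the highest count of its promoter entries, whereas the median of all was taken over single entries.

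Nrf1 and Gabpa encode factors known to act at promoters of OXPHOS genes, so their motifs were sought on both strands of the 300-base RefSeq promoters, together with MEF2, E-box and TATA motifs. The NRF1 motif GCGCATGCG was in 8 of 66 member promoters (12.1%) and in 1.75% of the 32851 promoters of the table. A member gene counted once if any of its promoter entries matched, whereas shares over all were taken over single entries. The ETS motif CCGGAAGT, bound by factors such as GABPA, was in 5 of 66 (7.58%) and in 3.89% of all. Uqcr11 held both motifs. The MEF2 motif (CTA and TAG with 4 bases between) was in 1 member promoter (1.52%, against 3.69% of all), the E-box CAGCTG in 6 (9.09%, against 16.3%) and TATAAA in 7 (10.6%, against 13.6%). Cox6b2, Cox7a1, Cox7b2 and Cox8b, the restricted isoforms in the table, held no NRF1, ETS or MEF2 match, while an E-box lay in Cox8b and TATAAA in Cox7b2 and Cox8b. Most other members also held none of the NRF1, ETS and MEF2 motifs. Among them were the widely expressed Cox6b1, Cox7a2 and Cox7b, while Cox8a held the ETS motif. The promoter of Cox6a1 is shown as a member with the NRF1 motif, whose overlapping matches on both strands are in capitals.
Cox6a1, chr5:115348959-115349208, minus strand: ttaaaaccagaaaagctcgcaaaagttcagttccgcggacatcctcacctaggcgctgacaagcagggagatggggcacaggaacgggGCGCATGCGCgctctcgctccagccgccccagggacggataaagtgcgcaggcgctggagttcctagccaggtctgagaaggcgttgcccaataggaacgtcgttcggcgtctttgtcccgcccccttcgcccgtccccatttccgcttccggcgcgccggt
Cox6a1 had 155, 123 and 143 CPM in the controls and 188, 166 and 89.0 CPM in the mutants, so that mutant library 1 was highest and mutant library 3 lowest. A motif match is a description of the sequence and shows no binding.

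Cox7a1 (chromosome 7, 30184171 to 30186030) had 6.34, 2.82 and 5.48 CPM in control libraries 1, 2 and 3 and 1.62, 4.38 and 0.907 CPM in mutant libraries 1, 2 and 3. Mutant libraries 1 and 3 were below all controls and mutant library 2 was within their range. The edgeR log2 fold change was -1.09 with an SE of 0.62 (adjusted p 0.383). Cox6b2 (chromosome 7, 4751792 to 4753094) had 12.2, 6.64 and 4.15 CPM in the controls and 1.78, 5.52 and 1.81 CPM in the mutants. The pattern was the same, with mutant library 2 inside the control range (edgeR log2 fold change -1.34, SE 0.59, adjusted p 0.258). Relative to the partner isoform per length, Cox7a1 stood at 19.2%, 10.8% and 19.1% of Cox7a2 in controls and at 3.23%, 15.3% and 3.68% in mutants. Cox6b2 stood at 10.6%, 13.6% and 7.59% of Cox6b1 in controls and at 2.00%, 8.70% and 1.95% in mutants. Without mutant library 2 both genes were lower in the mutants, Cox6b2 at -2.08 (edgeR adjusted p 0.0128) and Cox7a1 at -1.92 (edgeR adjusted p 0.0240), in a fit where 13.8% of all tested genes were called lower.

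**Figure D3:**
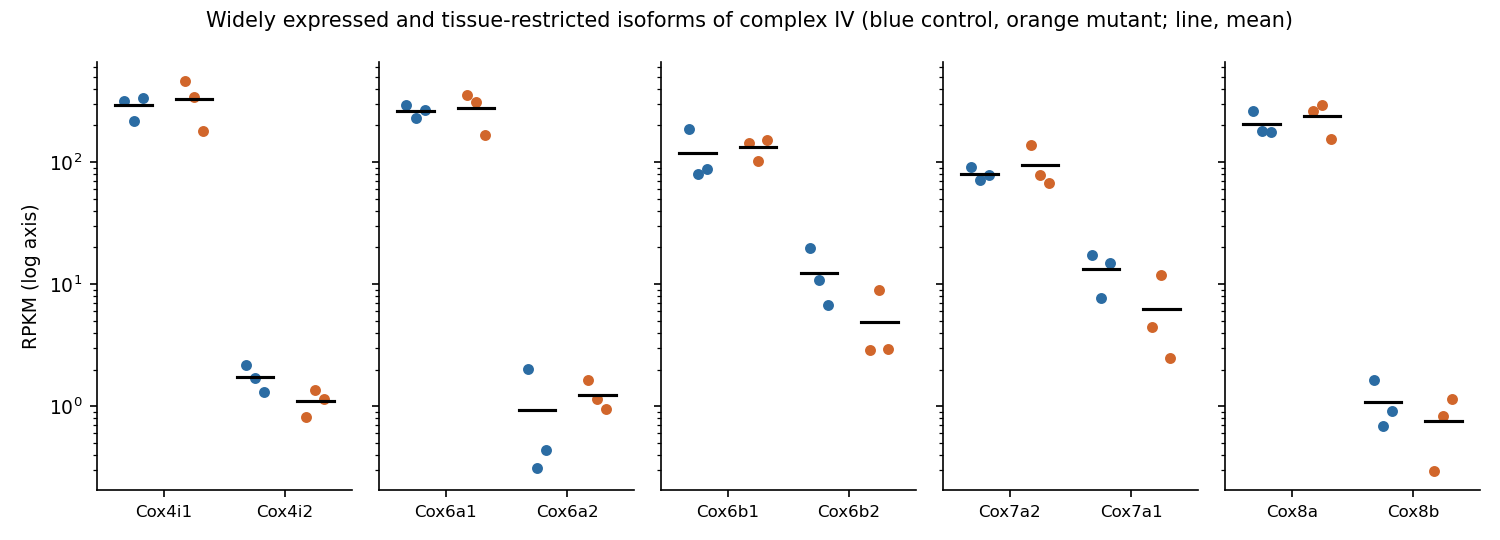
Level per length (RPKM, log axis) of widely expressed and tissue-restricted isoforms of complex IV in 3 control (blue) and 3 mutant (orange) libraries; black bars are group means. The restricted isoforms lie below their partners in every library, and Cox7a1 and Cox6b2 are the most abundant of them.

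The other restricted isoforms had low levels. Cox4i2 had 0.954 to 1.58 CPM in the controls and 0.594 to 0.982 CPM in the mutants (edgeR log2 fold change -0.65, SE 0.59, adjusted p 0.590). Cox6a2, whose exons overlap Itgad, had 1.34, 0.207 and 0.290 CPM in control libraries 1, 2 and 3 and 0.628 to 1.08 CPM in the mutants. Its highest value was in control library 1, while control libraries 2 and 3 were below all mutants (edgeR log2 fold change 0.45, SE 0.84, adjusted p 0.818). Markers of muscle and of other cells of the nerve and its sheath gave these values, in a fit where edgeR called 2.95% of all tested genes higher and 0.337% lower. Skeletal muscle markers (12 genes, 5 tested, 0 called) summed to 7.47 to 9.71 CPM in controls and to 5.72 to 6.47 CPM in mutants, with none at 0 in all libraries. Cardiac muscle markers (5 tested, 0 called, median log2 fold change -0.68) summed to 18.6, 29.4 and 22.1 CPM in control libraries 1, 2 and 3 and to 7.72, 14.1 and 11.4 CPM in mutant libraries 1, 2 and 3. Most of that sum in the controls was Myh6, a cardiac myosin gene, with 14.9 to 26.3 CPM in controls and at most 10.7 CPM, in mutant library 2, among the mutants (edgeR adjusted p 0.106). Markers of pericytes and smooth muscle (11 genes, 0 called, median log2 fold change -0.69) summed to 294 to 323 CPM in controls and to 128, 259 and 117 CPM in mutant libraries 1, 2 and 3. Fibroblast markers (8 genes, 0 called, median -1.52) summed to 2149 to 2580 CPM in controls and to 442, 1504 and 616 CPM in mutants. Oligodendrocyte markers (10 genes, 0 called, median -0.89), whose sums are given above, were likewise low in mutant libraries 1 and 3. Every mutant library was below every control in all 8 fibroblast markers, against 11.5% of all tested genes. The same held for 4 of 11 pericyte and smooth muscle markers, 1 of 10 oligodendrocyte markers and 1 of 5 tested in each muscle list. All 8 fibroblast markers also had an unadjusted p under 0.05 by edgeR, against 19.2% of all tested genes. The part of these cells in the values of Cox7a1, Cox6b2 and Cox4i2 was not tested, and fewer cells of a type cannot be told apart from less RNA per cell in libraries of whole nerve.

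Complex V, the ATP synthase, held the most abundant OXPHOS transcript. Atp5b, which encodes the catalytic beta subunit (chromosome 10, 128083307 to 128090388), had 571 RPKM in controls. It had 1001, 1027 and 1190.0 CPM in control libraries 1, 2 and 3 and 1834, 1149 and 975 CPM in mutant libraries 1, 2 and 3. The mutant libraries spread more widely than the controls and enclosed them (edgeR log2 fold change 0.30, SE 0.31, adjusted p 0.649). Atp5a1, the alpha subunit gene, had 372 ± 70.5 CPM in the controls and 440 ± 150 CPM in the mutants (SD over 3 libraries a group). Atp5h, a subunit gene of the peripheral stalk, was at 0.34 (SE 0.33, edgeR adjusted p 0.621). The median of the 17 genes was 0.19, with 15 above 0 and 2 below.

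The c subunit, which forms the rotating ring in the membrane, is made from Atp5g1, Atp5g2 and Atp5g3, which encode the same mature protein. In controls Atp5g3 was the most abundant per length, at 162 RPKM, beside 99.5 RPKM for Atp5g1 and 90.6 RPKM for Atp5g2. Their log2 fold changes were 0.13, 0.31 and -0.07 in that order, with none past the threshold. The least abundant tested genes of this group, Atp5s and Atp5sl, are not structural subunits of the enzyme despite their names. Atp5s (chromosome 12, 69724962 to 69744658) had 10.9, 17.4 and 19.3 CPM in the controls and 27.9, 25.4 and 22.2 CPM in the mutants. All of its mutant libraries were above all controls, and it had the smallest p of the members, without passing (edgeR log2 fold change 0.67, SE 0.28, adjusted p 0.244). Atp5sl was at 0.09.

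Levels per length differed more between members of a complex than between the groups. Median control levels were 54.3, 66.4, 61.0, 96.4 and 90.9 RPKM over the tested genes of complexes I to V. Within complex V they ran from 5.01 RPKM for Atp5sl to 571 RPKM for Atp5b, and within complex II from 46.6 RPKM for Sdhb to 141 RPKM for Sdha. Of the 79 tested members, 76 had more than 10 RPKM in controls.

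The members on chromosome X were Ndufa1, Ndufb11 and Cox7b, and they are given by library because sex of origin differed within the controls. Ndufa1 had 52.1 and 44.8 CPM in control libraries 1 and 3, which held Y-linked transcripts, 31.9 CPM in control library 2 and 46.0 to 55.8 CPM in mutants. Ndufb11, whose exons overlap Rbm10, had 45.0 and 46.5 CPM in control libraries 1 and 3 and 49.2 CPM in control library 2. Cox7b had 70.7 and 93.1 CPM in those controls, 77.7 CPM in control library 2, and 135, 84.3 and 60.6 CPM in mutants. None passed, with log2 fold changes of 0.24, -0.26 and 0.21, and the libraries with and without Y-linked transcripts showed no common order over these genes.

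OXPHOS transcripts are short, and values by exon length are given for the mutant libraries. Tested members had a median summed exon length of 681 nt (292 to 2927 nt), against 2846 nt for all tested genes. In mutant library 3, the 1353 tested genes with under 1000 nt of exons had a median of -0.43 log2 units from the control mean, the 7340 genes of 1000 to 3000 nt had -0.16 and the 7622 longer genes had 0.15. In mutant library 1 these medians were -0.03, -0.05 and 0.05. OXPHOS genes under 1000 nt (52 genes) were at -0.47 in mutant library 3 and at 0.44 in mutant library 1, and the 27 longer OXPHOS genes at -0.33 and 0.55. The medians of both length classes of OXPHOS genes were thus above 0 in mutant library 1 and below 0 in mutant library 3. Across the 79 members, which share libraries and are not independent, Spearman's rho between exon length and deviation was 0.057, -0.211 and 0.305 in mutant libraries 1, 2 and 3. Genes of cytosolic ribosomal proteins, which are also short (median 703 nt over 77 tested), had medians of 0.05, 0.27 and -1.05 in the same libraries. The part of transcript length in the OXPHOS values was not tested.

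**Figure D4:**
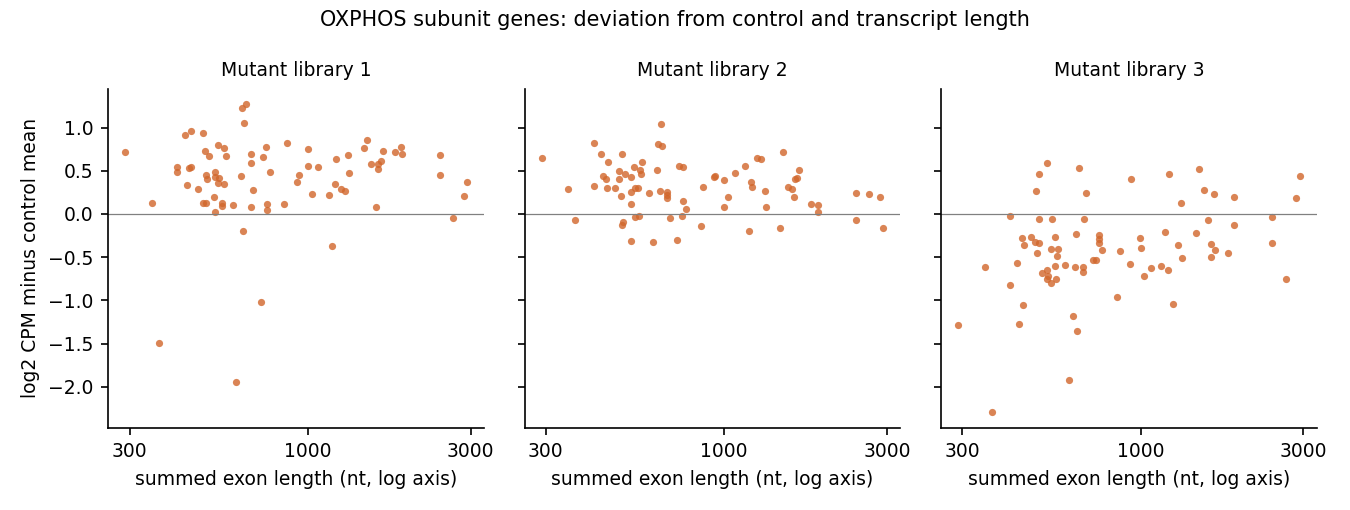
Deviation of each tested OXPHOS gene from its control mean (log2 CPM) against its summed exon length (nt, log axis) in mutant libraries 1, 2 and 3. Points lie mostly above 0 in mutant library 1 and mostly below 0 in mutant library 3, where long genes such as Ndufs1 (2927 nt) and Sdha (2859 nt) lie above 0.

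Cell type markers moved with the library values in a different order. Neuron markers rose in 6 of 12 genes by edgeR, against 2.95% of all tested genes. Their medians were 2.89, 0.98 and 2.45 log2 units from the control mean in mutant libraries 1, 2 and 3, and oligodendrocyte markers had -2.09, 0.33 and -2.61. No marker of either list was at 0 in all libraries. Mutant libraries 1 and 3 were alike in both lists, while their OXPHOS medians were 0.47 and -0.41. Mutant library 2, nearest the controls in both lists, had an OXPHOS median of 0.30. Markers of striatal neurons, a type of neuron of the forebrain, did not set mutant library 2 apart: all 9 rose by edgeR, and their medians were 4.63, 3.78 and 3.82 log2 units above the control mean. The optic nerve holds axons but no neuronal cell bodies, so every mutant minus control value here compares libraries that also differ in transcripts not typical of the labelled tissue. The part of neuronal or oligodendrocyte RNA in the OXPHOS values was not tested.

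Other genes of the pathway gave a single change. Ppargc1b, which encodes the coactivator PGC-1beta of mitochondrial biogenesis (chromosome 18, 61298136 to 61400431), had 5.75, 4.81 and 5.77 CPM in the controls and 13.8, 12.1 and 18.4 CPM in the mutants. Every mutant library was more than 2-fold above every control. It rose by 1.44 on the log2 scale (SE 0.30, edgeR adjusted p 0.0385) and was the 1 of 15 biogenesis regulators called, against 2.95% of all tested genes called higher. Its adjusted p was 0.115 to 0.211 without any 1 library other than mutant library 2, without which it was 0.00293, and it was 0.483 with Xist as a covariate. The list as a whole had a median of 0.10, with 8 of 15 above 0. Nrf1, Gabpa and Tfam, which encode regulators of OXPHOS and mitochondrial DNA transcription, were at -0.25, -0.14 and 0.10, and Ppargc1a, encoding PGC-1alpha, was at 0.80 (edgeR adjusted p 0.169). These 4 genes were named after their values were seen.

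Assembly factors, carriers and matrix enzymes had no gene past the threshold. Of 35 tested assembly factors 0 were called by edgeR, with a median log2 fold change of 0.18. An unadjusted p under 0.05 was reached by 3 of them, where 19.2% of all tested genes reached it. Atpaf1, which helps assemble the catalytic head of ATP synthase, had 41.7, 30.9 and 26.1 CPM in the controls and 70.7, 47.3 and 77.0 CPM in the mutants. Its groups did not overlap (edgeR log2 fold change 0.98, SE 0.28, adjusted p 0.0997), and DESeq2 called it (adjusted p 0.0254). Over all tested genes, 12.5% had every mutant library above every control, and DESeq2 called 10.1%. Cox18, an assembly factor gene of complex IV, was at 0.86 (edgeR adjusted p 0.184). Of 9 carriers and subunits outside the name rule 0 were called and 1 had an unadjusted p under 0.05, with a median of 0.13. That gene was Ndufa4l2, a relative of Ndufa4 known from pericytes, with 0.498 to 2.38 CPM in the controls and 0.0756 to 0.279 CPM in the mutants (edgeR log2 fold change -2.63, SE 0.89, adjusted p 0.154). Usmg5, encoding a small ATP synthase subunit, was at 0.68.

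Of 17 genes of the TCA cycle and pyruvate dehydrogenase 0 were called by edgeR, with a median of 0.28 and 15 above 0. An unadjusted p under 0.05 was reached by 1 of them, where 19.2% of all tested genes reached it. Idh3a, encoding a subunit of the NAD-dependent isocitrate dehydrogenase, had 37.2, 47.7 and 40.1 CPM in the controls and 106, 43.6 and 67.3 CPM in the mutants (edgeR log2 fold change 0.80, adjusted p 0.227). Dlat, encoding the E2 component of pyruvate dehydrogenase, was at 0.51. Both passed without mutant library 2 (edgeR adjusted p 0.00819 and 0.0409), in a fit where 27% of all tested genes were called. Mitochondrial ribosomal protein genes (77 tested, 0 called, 0 with an unadjusted p under 0.05) had a median of 0.11, with Mrpl53 at 0.75 and Mrpl3 at 0.47. Cytosolic ribosomal protein genes (77 tested, 0 called, 1 with an unadjusted p under 0.05) had a median of -0.14, with Rps4l at -1.08 and Rps27l at -0.62. By library, the carriers and mitochondrial ribosomal genes followed the OXPHOS order, highest in mutant library 1 and lowest in mutant library 3. TCA cycle genes had medians of 0.48, 0.14 and 0.07 in mutant libraries 1, 2 and 3, in the same order but all above 0. Assembly factors had 0.38, -0.02 and 0.14.

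**Figure D5:**
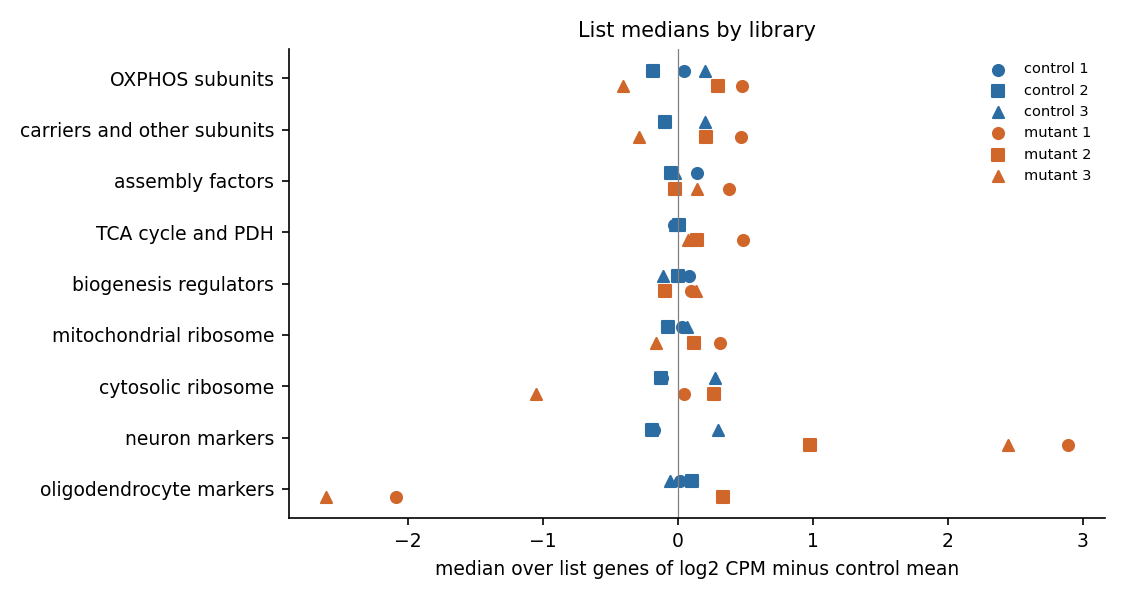
Median over the genes of each list of log2 CPM minus the control mean, by library (blue control, orange mutant; circle, square and triangle are libraries 1, 2 and 3). OXPHOS subunits lie at 0.47, 0.30 and -0.41 in mutant libraries 1, 2 and 3, and neuron and oligodendrocyte markers lie far from 0 in libraries 1 and 3.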

How the data were processed

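RNA from 6 optic nerve libraries, 3 control and 3 mutant, was measured. Each file holds raw counts of fragments per gene. Per the file headers, the authors counted read pairs over UCSC mm10 exons, unstranded, using featureCounts 1.4.6-p4. TopHat and DESeq2 are named in the submitters' processing notes. Counts without strand cannot separate overlapping genes, and 9 of 83 members share exons with another gene. Processed pseudogenes can also take or add reads. Each library was counted once, since every pair differed by more than sampling noise (the lowest chi-square divided by its degrees of freedom was 45.6).

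Genes passing filterByExpr (minimum count 10) were tested with edgeR 4.0.16 (R 4.3.3), TMM scaling, quasi-likelihood F tests and no covariate. Adjusted p under 0.05 over 16315 genes was the threshold. The SE was taken as |log2 fold change| over the root of F. CPM uses TMM-scaled library sizes, RPKM divides it by summed exon length, and library deviations add 0.5 counts before the log2. The test was tried on simulated counts. Alternatives were other scalings, filters, DESeq2 1.42.0, limma-voom (limma 3.58.1), robust dispersion, an adjusted p under 0.1, Xist as a covariate, libraries with high Xist alone and leaving out each library. Members and lists were chosen with earlier results of these data known, so lists are described without tests. Genes were named by a rule: in each complex the smallest p, the extreme fold changes and control levels, isoform pairs, X-linked and catalytic members, and from other lists those that passed or the smallest p. For 1 gene that the rule names, no value of its own is reported here.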

Additional observations from a re-analysis of the deposited data

How the results depend on the processing

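The count of OXPHOS genes called higher was 0 under every alternative run, and the count called lower was 0 under every alternative except leaving out 1 library, where it was 0 to 2, the 2 being Cox6b2 and Cox7a1 without mutant library 2. The medians over members stayed within 1 SD between libraries of their main values, but that SD was wide. For all OXPHOS genes it was 0.36, beside a main median of 0.17. Their median ran from -0.01 without mutant library 1 to 0.40 without mutant library 3, so this measure does not show a stable median. The count over all tested genes was 537, and 870 without a filter on low counts, 1645 with DESeq2, 1073 at an adjusted p under 0.1, and 0 both with Xist as a covariate and among libraries with high Xist (1295 and 894 at an unadjusted p under 0.05 by edgeR). It was 51 to 4551 with 1 library left out, the lowest without control library 1 and the highest without mutant library 2. Over all 79 tested members, 126 of 1421 single-gene values had the opposite sign to the main value, 0 of them past the threshold, and the cause was not tested. With Xist as a covariate and with high-Xist libraries alone, the log2 fold changes of the named genes that turned were 0.24 and 0.24 for Ndufa11, 0.10 and 0.058 for Ndufs8, 0.33 and 0.34 for Uqcrb, 0.27 and 0.30 for Atp5g2 and -0.20 and -0.21 for Atp5sl. With 1 library left out, those that turned ranged from -0.034 to 0.47 for Atp5a1, -0.013 to 0.48 for Atp5b, -0.018 to 0.58 for Atp5g1, -0.24 to 0.17 for Atp5g2, -0.16 to 0.40 for Atp5g3, -0.13 to 0.28 for Atp5sl, -0.16 to 0.47 for Cox4i1, -0.14 to 0.34 for Cox6a1, -0.045 to 0.67 for Cox6b1, -0.13 to 0.43 for Cox7a2, -0.16 to 0.36 for Cox7a2l, -0.15 to 0.45 for Cox7b, -0.38 to 0.073 for Ndufa11, -0.14 to 0.30 for Ndufs7, -0.20 to 0.20 for Ndufs8, -0.48 to 0.014 for Sdhc, -0.029 to 0.44 for Sdhd, -0.18 to 0.085 for Uqcrb and -0.17 to 0.55 for Uqcrh. The part of depth was not tested. Low counts kept Cox7b2, Cox8b and Cox8c from being tested. No paired analysis was possible because the labels give the libraries no shared replicate numbers.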

Other observations

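Lists of other cell types were measured in the same fit, where edgeR called 2.95% of all tested genes higher and 0.337% lower. An unadjusted p under 0.05 was reached by 19.2% of all tested genes. Striatal neuron markers rose in 9 of 9 genes by edgeR, with a median log2 fold change of 4.33, and they summed to 111 to 167 CPM in controls and to 2222, 1378 and 1516 CPM in mutant libraries 1, 2 and 3. Endothelial markers fell in 1 of 7 genes, Kdr, with a median of -0.88, and 5 had an unadjusted p under 0.05 by edgeR. Every mutant library was below every control in 5 of the 7, against 11.5% of all tested genes. Astrocyte and microglia markers had 0 of 8 called each, with medians of -0.53 and -0.36, and 2 and 1 with an unadjusted p under 0.05. Those 2 astrocyte genes differed in sign, with log2 fold changes of 1.05 for Slc1a2 and -1.37 for Gjb6. Photoreceptor markers rose in 1 of 4 tested genes. Adipocyte markers (1 tested) had 0 called and summed to at most 3.55 CPM in any library.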
